A study of Mus musculus with 4 samples.

Results

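The TAK1 signalling cascade was followed as 32 named genes: the kinase TAK1 and its TAB subunits, the adaptors and kinases that lie between receptors and TAK1, the enzymes that build or cut the ubiquitin chains on which TAK1 assembles, and the IKK and MAP kinases that it switches on. Members were found by gene symbol. Of the 32 genes, 31 were in the table of 15586 genes, and Tab1 was not analysed here.

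The cells were microglia sorted from the mouse retina on EYFP fluorescence, 200 cells to a library, at 2 months of age. All mice carried the tamoxifen-inducible recombinase CreER on 1 allele of Cx3cr1, a receptor gene that monocytes and other macrophages also use, together with floxed Tak1 (Map3k7). The 2 control libraries came from mice given corn oil on 5 days, and the 2 knockout libraries from mice given tamoxifen at 75 mg/kg on 5 days. The genotype label of the controls reads Cx3cr1CreER/+;Tak1fl/fl, and that of the knockouts reads Cx3cr1CreER/+;Tak3fl/fl, although the treatment protocol gives Tak1fl/fl for all mice. Tamoxifen and loss of TAK1 cannot be told apart, because no control received the drug. Whether libraries came from separate or pooled animals is not stated, so p-values measure only the spread between libraries, which may be technical.

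TAK1 is activated after Toll-like, IL-1 and TNF receptors recruit adaptors that attach ubiquitin chains to one another. TAB2 and TAB3 bind the K63-linked chains and bring TAK1 to them, while the linear chains made by LUBAC (RNF31, RBCK1 and SHARPIN) hold the IKK complex. TAK1 then phosphorylates IKK, which releases NF-kB, and the MAP2 kinases, which activate JNK and p38. In microglia this route carries the inflammatory response to microbial products and cytokines.

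Values are FPKM, a read density corrected for how long a transcript is and for library size, and levels can be compared between genes on this scale. Depth per library is unknown, and without molecular identifiers PCR duplicates count as fragments. Many genes were near 0 in some libraries and high in others: of 7823 genes that averaged 1 FPKM or more, 2514 (32.1%) had over 90% of their total in just 1 library. A reading near 0 is therefore no sign that a gene was silent. Of 14 microglia markers, all were in the table and 13, 14, 14 and 14 read 1 FPKM or more in control 1, control 2, knockout 1 and knockout 2; the order of libraries is the same throughout. Both knockouts lay above both controls in 6 of the 14 and below both in 2, and the summed level was 13449 and 16104 FPKM in controls and 28739 and 21353 in knockouts.

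The summed markers of 4 other cell types did not overlap between the groups. Of 12 rod photoreceptor markers, 9 stood above both controls in both knockouts, and their sum was 2194 to 3270 FPKM in controls and 6056 to 9082 in knockouts. The 8 bipolar cell markers summed to 3.37 and 113 FPKM in controls and to 691 and 655 in knockouts, with Grm6 and Cabp5 among those under 1 FPKM everywhere. Most of that sum was 1 gene, Pcp2, at 3.28 and 95.7 FPKM in controls and 647 and 572 in knockouts. The 8 monocyte markers in the table summed to 821 and 1662 FPKM in controls and to 190 and 122 in knockouts, with Vcan among those under 1 FPKM in all libraries. In each library most of that sum was Ms4a4c, at 417 and 1211 FPKM in controls and 138 and 120 in knockouts. Of these 8 markers, 0 stood above both controls and 2 below. S100a4 overlapped, at 88.3, 0, 49.8 and 0.24 FPKM. The 8 markers of perivascular macrophages, cells that also use Cx3cr1, summed to 2222 and 1752 FPKM in controls and to 190 and 833 in knockouts, with 0 above and 2 below. Those 2 were Ms4a7 and Clec12a. Ms4a7, most of the sum in both controls, read 1614 and 1547 FPKM in controls and 189 and 155 in knockouts. Clec12a read 144 and 199 FPKM in controls and 0.36 and 0.48 in knockouts. Lyve1, Cbr2 and F13a1 read 61.8, 96.7 and 119 FPKM in knockout 2 and at most 0.18 FPKM in any other library. Detected at 1 FPKM or more were 4, 4, 1 and 6 of the 8, in the order of libraries. The part of these cells and of the microglia markers in the values below was not tested, and in pooled cells fewer cells of a type and less RNA per cell cannot be told apart.

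More cascade transcripts were detected in knockout than in control libraries. At 1 FPKM or more, 9 and 7 of the 31 members were detected in control 1 and control 2 (29% and 22.6%), and 17 and 14 in knockout 1 and knockout 2 (54.8% and 45.2%). The same held over all genes of the table, with 28.8% and 24.2% detected in controls and 38.8% and 36.1% in knockouts. At 1 FPKM the members' share was thus near that of all genes in the controls, and in both knockouts it was higher.

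**Figure D1:**
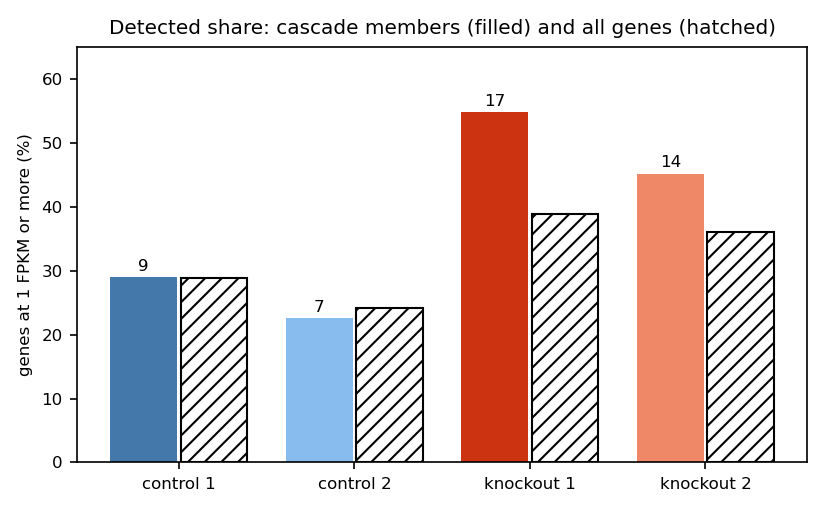
Percentage of genes at 1 FPKM or more (y axis) in each of the 4 libraries (x axis), for the 31 cascade members (filled bars, with the number of members) and for all 15586 genes (hatched bars). The filled bars reach 54.8% and 45.2% in the knockouts and 29% and 22.6% in the controls.

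Many members were detected in some libraries only. Irak1, Ube2n, Cyld and Map3k8 (12.9% of members) read 1 FPKM or more in all 4 libraries, beside 13.2% of all genes. Another 8 members (25.8%) did so in none, beside 43.9% of all genes: Map3k7 itself, Traf3, Traf6, Ripk1, Map2k3, Map2k6, Mapk8 and Mapk11. Members at 1 FPKM or more in at least 1 knockout and in no control numbered 11, where 19.8% of all genes had that form, and members with the reverse form numbered 2, Ikbkg and Mapk9, where 6.44% of all genes had it.

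No cascade member passed the test between groups. Of 31 members, 20 averaged 1 FPKM or more and were tested with limma on log2(FPKM + 1), and 0 were higher and 0 lower at a Benjamini-Hochberg adjusted p under 0.05. Of all 7823 tested genes 0% were called in either direction. At an unadjusted p under 0.05, limma gave 1 member higher, Otulin, and 0 lower, where 6.07% of all tested genes were higher and 1.62% lower. With 2 libraries against 2, an exact two-sided permutation test of 1 gene cannot go below p = 0.333.

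Without a filter on low values, 10 of the 31 members had both knockouts above both controls, and 0 had both below. Of all genes of the table, 17.6% stood above and 8.01% below. The 10 were Tab2, Irak2, Ripk2, Ube2n, Rbck1, Sharpin, Otulin, Chuk, Ikbkb and Mapk8. In 7 of them both knockouts read at least 1 FPKM, as in 10.1% of all genes; Chuk, Ikbkb and Mapk8 were below that level in at least 1 knockout. With libraries scaled to the same sum the count was 11, beside 21% of all genes above and 7.15% below. After median ratio scaling it was 6, beside 13.4% above and 13.9% below. After quantile normalization of all genes it was 5, and 3 members, Irak1, Irak4 and Cyld, stood below both controls, beside 12.7% of all genes above and 13.6% below. Rbck1, Otulin, Ikbkb and Mapk8 stood above both controls under each of these scalings. Their controls read at most 0.39 FPKM, so rescaling a library could hardly reverse their order. Mapk8 was under 1 FPKM in every library.

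The share above the controls depended on level across the table. Among the 16 members with a mean of 1 to 20 FPKM, 7 stood above both controls, and 0 below, beside 30.1% and 7.25% of the 4647 genes in that range. Among the 11 members under 1 FPKM 1 stood above and 0 below, beside 7.41% and 4.61% of genes. Otulin, Map3k8 and Mapk14 averaged 20 to 100 FPKM, a range in which 27.6% of genes stood above and 12.1% below, and Otulin stood above. Ube2n stood above both controls in the range over 100 FPKM, where 19% of genes stood above and 26.5% below. The median log2 fold change was 0.65 over the 31 members and 0.014 over all genes of the table, and both moved with the pseudocount. These 2 sets differ in level: 7763 of the 15586 genes averaged under 1 FPKM, with a median of 0. Among tested genes the median was 1.53 over the 20 members and 0.94 over all 7823. Over all genes averaging 1 to 20 FPKM, the range of 16 members, it was 1.35. The ranges and the tested set rest on the mean over all 4 libraries. A gene near 0 in both controls enters them only through a knockout, so these medians and shares depend in part on that choice.

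**Figure D2:**
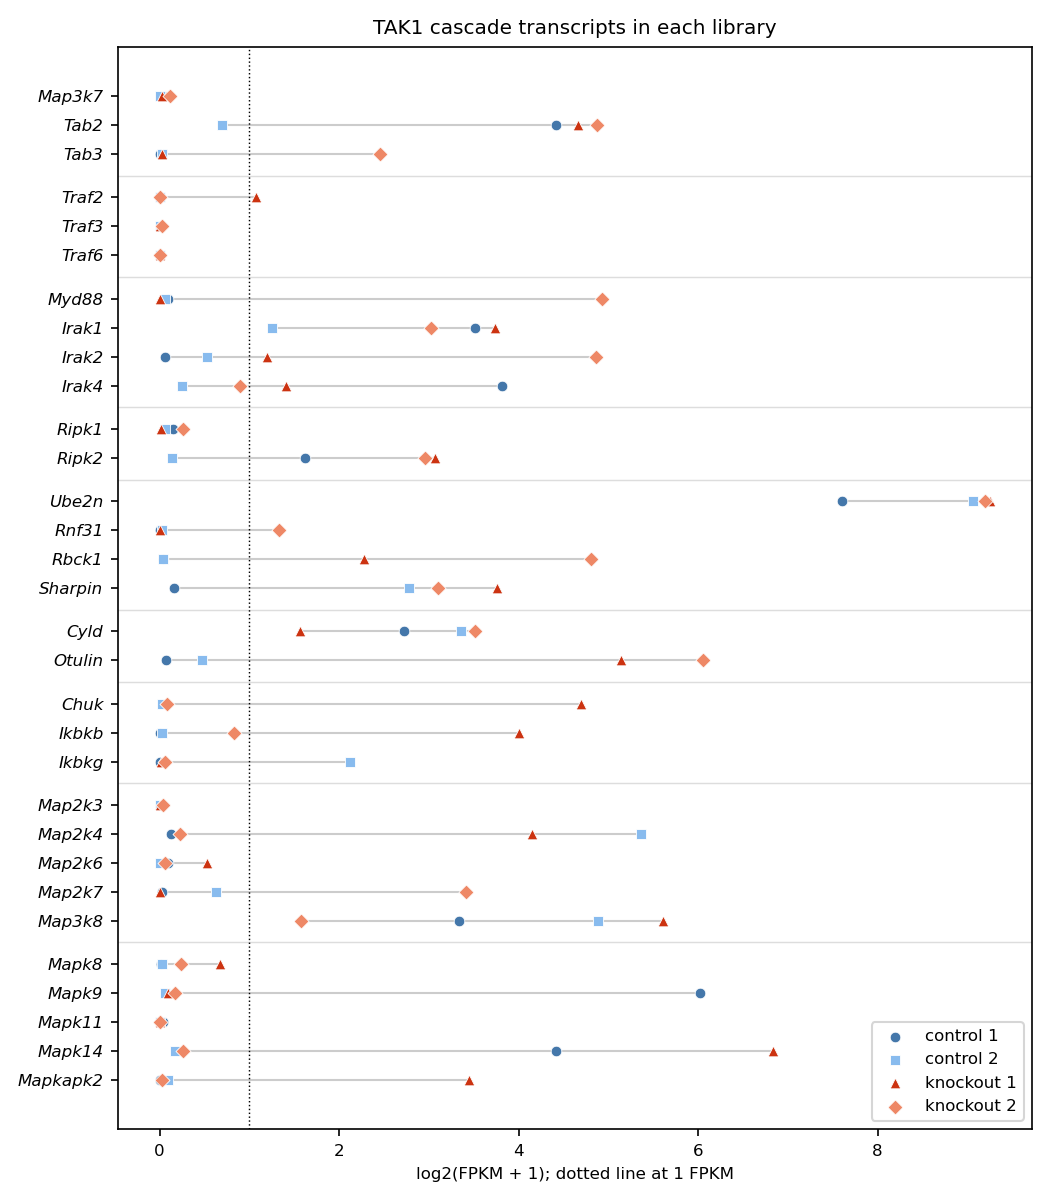
Level of each of the 31 members as log2(FPKM + 1) (x axis) in control 1, control 2, knockout 1 and knockout 2, with members ordered by role (y axis, grey lines between roles) and a dotted line at 1 FPKM. Ube2n lies apart at 193 to 611 FPKM, and many members have 1 library far from the other 3.

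The targeted gene did not check the labels. Map3k7 (chromosome 4, 31964097 to 32023467, GRCm38), which encodes TAK1, read 0.03, 0, 0.02 and 0.08 FPKM, so both groups were at the floor. Tab2, which encodes a ubiquitin-binding subunit of the TAK1 complex, read 20.4 and 0.62 FPKM in controls and 24.4 and 28.3 in knockouts. Control 1 was close to the knockouts and control 2 alone was low, and the log2 difference of 2.21 ± 1.81 (SE) did not pass limma's test (adjusted p = 0.698). Tab3, the other ubiquitin-binding subunit, read 0, 0.02, 0.02 and 4.49 FPKM. Only knockout 2 was above 1 FPKM, and the adjusted p by limma was 0.709.

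The Myddosome is the receptor-proximal assembly of MyD88 with IRAK kinases that starts signalling from most Toll-like and IL-1 receptors. Myd88, its adaptor, read 0.07 and 0.04 FPKM in controls and 0 and 29.5 in knockouts. The high value was in knockout 2 alone. Irak4, the kinase that MyD88 binds first, read 13.1 and 0.19 FPKM in controls and 1.65 and 0.86 in knockouts, with control 1 the highest.

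Irak1, a kinase that IRAK4 activates and that carries the signal to TRAF6, read 10.4 and 1.38 FPKM in controls and 12.3 and 7.15 in knockouts. The groups overlapped, and Irak1 was the Myddosome gene found above 1 FPKM in every library. Irak2, a related kinase linked to the sustained phase of the response, read 0.04 and 0.44 FPKM in controls and 1.29 and 28.02 in knockouts. Both knockouts were above both controls, with knockout 2 far above knockout 1, and the log2 difference of 2.74 ± 1.89 (SE) had an adjusted p of 0.698 by limma.

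Exons of Myd88 and Irak4 overlap those of genes on the opposite strand in the GENCODE vM21 annotation, and the labels do not state that strand was used. Twf1, which overlaps Irak4, read 1095, 1016, 226 and 636 FPKM, and Acaa1a, which overlaps Myd88, read 0, 31.9, 7.46 and 2.94 FPKM. The part of shared reads in the Irak4 and Myd88 values was not tested.

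Transcripts of the TRAF proteins, adaptors and ubiquitin ligases beneath these receptors, were at or near the floor. Traf6 was listed at 0 in all libraries, Traf3 did not exceed 0.02 FPKM, and Traf2 read 1.10 FPKM in knockout 1 and 0 in the other 3. The RIP kinases were split. Ripk1, the kinase of the TNF receptor complex, stayed at 0.01 to 0.20 FPKM, while Ripk2, which relays signals from the NOD receptors, read 2.07 and 0.10 FPKM in controls and 7.37 and 6.76 in knockouts. The 2 knockouts lay close together and above both controls, with a log2 difference of 2.13 ± 1.64 (SE, limma adjusted p = 0.698).

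The ubiquitin enzymes held the members furthest from the controls. Upstream sequences are shown for 3 of them that stood above both controls in both knockouts: Otulin, Rbck1 and Ube2n. These are RefSeq sequences (GRCm38.p6), printed 5′ to 3′ on the strand of the gene, of up to 250 bases before the first listed start site, less bases that lie in a GENCODE exon of the gene. Capitals mark GC boxes (GGGCGG on either strand) and CCAAT boxes (CCAAT on either strand).
Otulin chr15:27630694-27630943 (- strand): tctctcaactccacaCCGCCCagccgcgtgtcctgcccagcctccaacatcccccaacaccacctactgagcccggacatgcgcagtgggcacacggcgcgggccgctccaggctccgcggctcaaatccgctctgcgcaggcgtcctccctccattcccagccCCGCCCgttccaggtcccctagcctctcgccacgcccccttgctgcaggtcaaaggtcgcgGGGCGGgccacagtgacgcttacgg
Rbck1 chr2:152332654-152332889 (- strand): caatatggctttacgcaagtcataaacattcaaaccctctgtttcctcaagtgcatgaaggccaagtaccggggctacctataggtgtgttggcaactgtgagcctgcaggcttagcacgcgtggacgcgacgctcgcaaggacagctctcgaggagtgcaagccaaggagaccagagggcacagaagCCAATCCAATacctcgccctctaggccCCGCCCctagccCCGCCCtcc
Ube2n chr10:95514912-95515144 (+ strand): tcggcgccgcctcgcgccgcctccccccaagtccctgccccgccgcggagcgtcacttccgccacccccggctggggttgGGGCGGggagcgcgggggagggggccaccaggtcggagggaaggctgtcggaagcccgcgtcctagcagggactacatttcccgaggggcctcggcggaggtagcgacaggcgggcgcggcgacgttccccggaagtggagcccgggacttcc
The windows held 3, 2 and 1 GC boxes in this order, Rbck1 also held 2 CCAAT boxes, and their G and C content was 69.6%, 57.6% and 76%. None of the 3 held the TATA box, the AP-1 site or the NF-kB consensus on either strand, which says only that these letters are not in these windows.

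Over the whole cascade, 27 of the 31 members matched a promoter entry, giving 40 windows of 250 bases. A GC box was in 62.5% of these windows and in 50.3% of the 15544 windows of genes in the table. The CCAAT box was in 27.5% against 35.7%, the TATA box (TATAAA) in 7.5% against 8.64%, the AP-1 site (TGANTCA) in 12.5% against 5.22%, and the NF-kB consensus in 12.5% against 8.44%. The NF-kB consensus was found for Map3k7, Cyld, Traf3 and Irak1, and the AP-1 site for Map2k7, Map2k6 and Ikbkg. Several genes had more than 1 window: by gene, the GC box was found for 22 of 27, the CCAAT box for 11, the TATA box for 3, the AP-1 site for 3 and the NF-kB consensus for 4. The share by gene over the whole table was not computed, so the counts by gene have no background beside them. All of these are matches of letters and show no binding.

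Ube2n encodes UBC13, the conjugating enzyme that builds K63-linked chains, and was the most abundant member in every library. It read 193 and 536 FPKM in controls and 611 and 585 in knockouts, or 364 ± 242 and 598 ± 18.5 FPKM (SD, n = 2 each). Control 1 stood apart and control 2 was close to the knockouts, and the log2 difference of 0.89 ± 0.67 (SE) did not pass limma's test (adjusted p = 0.698). After median ratio scaling the difference was 0.011. RefSeq lists the pseudogenes Ube2n-ps1 and Ube2nl, so part of its reads may be split between copies.

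The 3 LUBAC subunits were seldom detected in controls. Rbck1, which encodes HOIL-1, read 0.03 FPKM in both controls and 3.86 and 27.0 in knockouts. The log2 difference was 3.50 ± 1.74 (SE), with an unadjusted p of 0.0902 and an adjusted p of 0.698 by limma. Sharpin, the accessory subunit, read 0.12 and 5.87 FPKM in controls and 12.5 and 7.61 in knockouts, so that control 2 was just below knockout 2.

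Rnf31, the gene of the catalytic subunit HOIP, read 0, 0.02, 0 and 1.52 FPKM. Its exons overlap those of Irf9 on the same strand, and Irf9, which acts in interferon signalling, read 1.42, 0.41, 47.5 and 120.4 FPKM, with its highest value in the same library. The part of shared reads in that Rnf31 value was not tested. All 3 LUBAC genes reached 1 FPKM together in knockout 2 and in no other library, and 2 of the 3 did so in knockout 1, 1 in control 2 and 0 in control 1.

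Otulin, the deubiquitinase that cuts linear chains, had the largest log2 difference and the smallest p among the 20 tested members. It read 0.05 and 0.39 FPKM in controls and 34.3 and 65.3 in knockouts. Both controls were under 1 FPKM and both knockouts were above 30 FPKM. The log2 difference was 5.32 ± 1.57 (SE), with an unadjusted p of 0.0148 and an adjusted p of 0.559 by limma. It lay between 3.33 and 7.45 under the other settings with all 4 libraries, and between 4.87 and 5.78 when a library was left out, and no setting brought the adjusted p under 0.05.

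Cyld, which cuts both K63-linked and linear chains, behaved otherwise. It read 5.61 and 9.29 FPKM in controls and 1.95 and 10.5 in knockouts, so the groups overlapped, and the log2 difference was -0.50 ± 1.67 (SE, limma adjusted p = 0.909). The difference between Otulin and Cyld in their response was not tested.

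**Figure D3:**
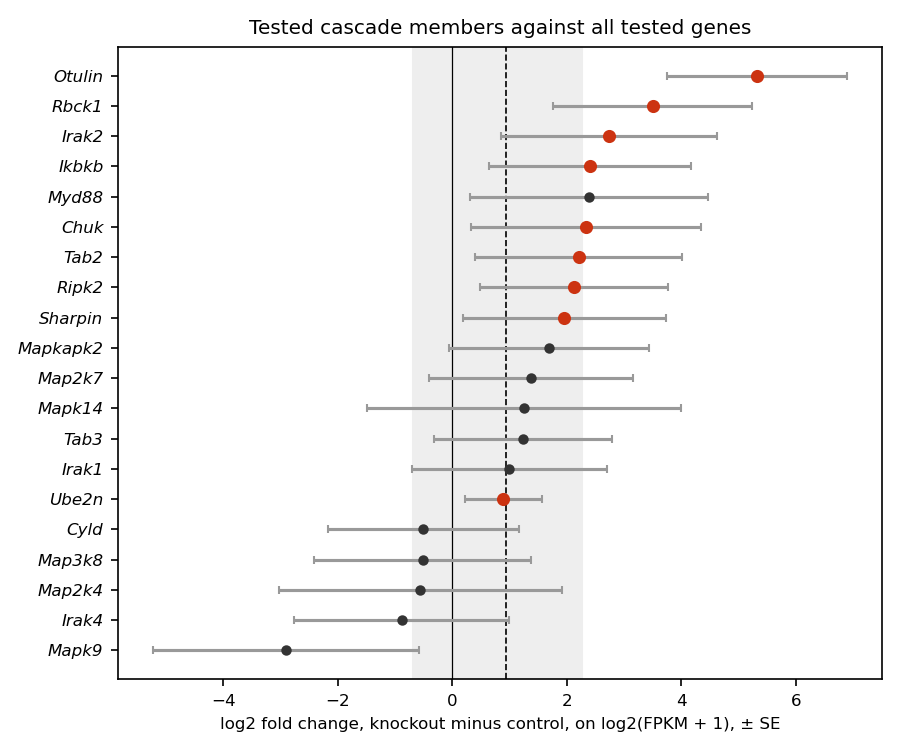
Log2 fold change, knockout minus control, on the log2(FPKM + 1) scale (x axis) for the 20 tested members (y axis), with bars of 1 SE from limma; red points are members above both controls in both knockouts. The dashed line is the median of all 7823 tested genes, 0.94, and the grey band spans their quartiles, -0.68 to 2.27; Otulin, at 5.32, lies furthest to the right and Mapk9, at -2.90, furthest to the left.

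The IKK complex joins the kinases IKK-alpha (Chuk) and IKK-beta (Ikbkb) to the scaffold NEMO (Ikbkg), which binds linear ubiquitin. Chuk read 0.05 and 0.02 FPKM in controls and 24.96 and 0.06 in knockouts. Knockout 1 alone was high, and knockout 2 exceeded the controls by a margin at the level of rounding. Ikbkb read 0 and 0.02 FPKM in controls and 15.1 and 0.77 in knockouts, again with its high value in knockout 1. Ikbkg read 0 and 3.35 FPKM in controls and 0.01 and 0.04 in knockouts, with overlap. It was the 1 IKK gene detected in a control. No library held all 3 subunits at 1 FPKM or more.

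Ikbkg shares exon sequence with G6pdx on the opposite strand, which read 4.18, 89.4, 0.11 and 78.5 FPKM. G6pdx was also high in control 2, the library with the Ikbkg value, and in knockout 2, where Ikbkg was at 0.04. The part of shared reads was not tested.

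The MAP2 kinases MKK4 and MKK7, which activate JNK, were high in different libraries. Map2k4 (MKK4) read 0.09 and 40.1 FPKM in controls and 16.7 and 0.17 in knockouts, with 1 high and 1 low library in each group. Map2k7 (MKK7) read 0.02 and 0.55 FPKM in controls and 0 and 9.64 in knockouts, so in each group it was highest in the second library. The p38 activators were not detected: Map2k3 (MKK3) did not exceed 0.03 FPKM and Map2k6 (MKK6) did not exceed 0.44.

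Map3k8, which encodes TPL2, the kinase that drives ERK when IKK is active, was detected in every library. It read 9.13 and 28.4 FPKM in controls and 47.7 and 1.99 in knockouts. The knockouts held both the highest and the lowest value, and the log2 difference was -0.52 ± 1.89 (SE, limma adjusted p = 0.921).

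At the end of the cascade, the MAP kinases Mapk14 and Mapk9 differed widely between libraries of 1 group. Mapk14 (p38 alpha) read 20.4 and 0.13 FPKM in controls and 113 and 0.20 in knockouts. Library 1 was high and library 2 near 0 in both groups, and the log2 difference was 1.25 ± 2.74 (SE, limma adjusted p = 0.845). Mapk9 (JNK2) read 64.2 FPKM in control 1 and 0.04, 0.07 and 0.13 in the other 3. It was the lowest of the tested members by log2 difference, at -2.90 ± 2.32 (SE, limma adjusted p = 0.698), and 1 library decided that value.

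Mapk8 (JNK1) read 0.01 and 0.02 FPKM in controls and 0.60 and 0.18 in knockouts, all under the level counted as detected. Mapk11 (p38 beta) did not exceed 0.03 FPKM. Mapkapk2, the gene of MK2, a p38 substrate that stabilises cytokine messenger RNAs, read 9.94 FPKM in knockout 1 and at most 0.07 elsewhere. No library held a JNK gene together with Map2k4 or Map2k7 at 1 FPKM or more, and none held a p38 gene together with Map2k3 or Map2k6. In these libraries 24.2% to 38.8% of all genes reached that level, so this is not read as a missing arm. The same holds for the IKK and LUBAC counts above.

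Of the 20 tested members 8, or 40%, had over 90% of their total FPKM in just 1 library, beside 32.1% of all tested genes. These were Tab3, Myd88, Irak2, Chuk, Ikbkb, Map2k7, Mapk9 and Mapkapk2. The library was knockout 1 for 3 of them, knockout 2 for 4 and control 1 for 1. Leaving out 1 knockout turned some members into calls. Without knockout 2, limma called Rbck1, Chuk, Ikbkb and Mapkapk2 higher, by 2.24, 4.65, 3.996 and 3.403 on the log2 scale (adjusted p = 0.0295, 0.0353, 0.0303 and 0.0303), where 18.5% of all tested genes were called higher. Without knockout 1 it called Tab3 higher, by 2.44 (adjusted p = 0.0432), where 10.2% were. In these fits the lone knockout is assumed to vary like the controls, whose 2 values near 0 lie close together. In those fits 0.0707% and 0.0583% of genes were called lower, and no member was. Leaving out either control called no gene. With a library left out, members whose remaining knockouts all stood above the remaining controls numbered 14 to 19 and members below 1 to 4. The same counts over all genes were 27.6% above and 22.6% below without control 1, 26.4% and 23.3% without control 2, 37.7% and 13.2% without knockout 1, and 31.3% and 16.7% without knockout 2. No member was called after quantile normalization of the tested genes, where limma called 0.0256% of genes higher and 0.0383% lower, nor with the replicate number as a block, where it called 0.192% and 0.256%.

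Other genes of the pathway were taken from lists of receptors, adaptors, ubiquitin genes and kinases that hold none of the 32. Of 99 such genes 94 were in the table and 64 were tested, with 0 called by limma at an adjusted p under 0.05; 21 had both knockouts above both controls and 6 had both below, beside 17.6% and 8.01% of all genes. Other ubiquitin pathway genes had 9 of 15 above and 2 below. Their counts were 5 above and 3 below after median ratio scaling. After quantile normalization of all genes they were 8 and 2, beside 12.7% and 13.6% of all genes. The other lists had 2 to 4 genes above and 0 or 1 below each. After median ratio scaling this turned to 3 above and 4 below of 21 receptors and 2 and 3 of 18 adaptors. It was 2 and 4 of 16 other MAP kinase genes and 1 and 2 of 12 phosphatases. The 12 substrate kinases and docking proteins then had 2 above and 1 below. Of all genes, 13.4% stood above and 13.9% below after that scaling.

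**Figure D4:**
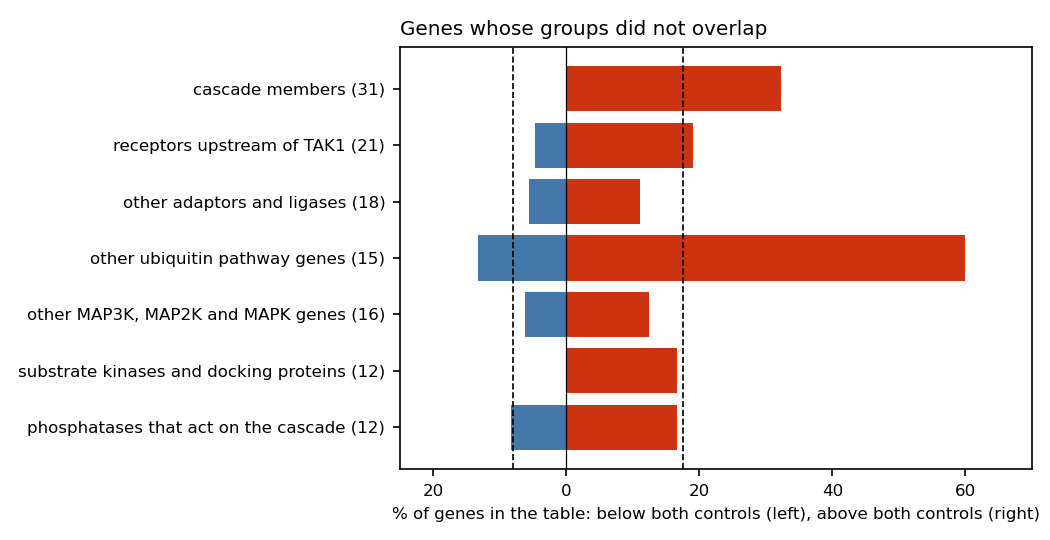
Percentage of the genes of each list (y axis, number in the table in brackets) that stood above both controls in both knockouts (red, to the right) or below both (blue, to the left); dashed lines mark 17.6% and 8.01% of all genes of the table. The cascade members had 10 of 31 above and 0 below, and the other ubiquitin pathway genes 9 of 15 above and 2 below.

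In the ubiquitin list, Tnfaip3, which encodes A20, an inhibitor of NF-kB signalling that edits ubiquitin chains, read 0.13 and 3.80 FPKM in controls and 33.4 and 50.6 in knockouts (unadjusted p = 0.043, adjusted p = 0.636 by limma). Ubb, a polyubiquitin gene, read 6374 and 6613 FPKM in controls and 10023 and 8425 in knockouts (adjusted p = 0.562 by limma), and its log2 difference of 0.50 turned to -0.38 after median ratio scaling. Ubb repeats a ubiquitin coding unit that other genes share, so its reads may be split between genes.

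Among receptors that feed TAK1, Tlr4, the receptor for bacterial lipopolysaccharide, read 0.02 and 0.31 FPKM in controls and 39.0 and 17.4 in knockouts (unadjusted p = 0.0306, adjusted p = 0.582 by limma). Tgfbr1, a receptor for TGF-beta, read 5.78 and 33.9 FPKM in controls and 154 and 112 in knockouts. Tnfrsf1a, the main TNF receptor, lay the other way, at 8.80 and 35.1 FPKM in controls and 0.09 and 0.37 in knockouts. These 3 were named for the smallest p of the 17 receptors tested, so their lack of overlap follows from that choice. Among all 21 receptors, 4 stood above both controls and 1 below, beside 17.6% and 8.01% of all genes. The adjusted p was 0.662 for Tgfbr1 and 0.667 for Tnfrsf1a by limma.

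Among other adaptors, Tifa, which gathers TRAF6, read 0.30 and 33.4 FPKM in controls and 132 and 93.2 in knockouts. Tank, a TRAF-binding protein that restrains NF-kB signalling, read 212 and 378 FPKM in controls and 125 and 0.87 in knockouts. Tollip, an inhibitor of IRAK signalling, read 39.8 FPKM in knockout 1 and at most 0.03 elsewhere. Among other kinases, Mapk3 (ERK1) read 0 and 0.04 FPKM in controls and 6.41 and 9.99 in knockouts. Map3k1 (MEKK1) read 82.3 and 312 FPKM in controls and 98.9 and 55.2 in knockouts, with overlap. The adjusted p of these 5 genes by limma was 0.694 to 0.698.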

How the data were processed

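RNA from 4 libraries of 200 sorted retinal microglia, 2 controls and 2 TAK1 knockouts, was copied into SMART-seq cDNA and preamplified before library construction, according to the labels' protocols. The authors deposited 1 FPKM value per gene and library, rounded to 2 decimals, per the file headers. The submitters' processing notes name the build mm10. Which aligner, quantifier and annotation were used is not given in the sources used here, and FPKM are not counts, so depth is unknown and no counting interval is given.

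Columns were matched to samples by title. log2(FPKM + 1) was compared between groups with limma 3.58.1 in R 4.3.3 with a mean-variance trend (2 degrees of freedom between libraries plus 3.99 from the prior) over 7823 genes averaging 1 FPKM or more, with Benjamini-Hochberg adjustment over all of them. Fold changes on this scale understate those of low genes. Counts of genes above or below both controls used all 15586 genes. The code was tested on simulated data. Gene positions and exons were taken from GENCODE vM21 (GRCm38), and upstream sequences from RefSeq (GRCm38.p6). Figures were drawn with matplotlib 3.10.9.

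The members and lists were chosen with earlier results of these data known. All members in the table are named, and from each of the 6 other pathway lists the 3 tested genes with the smallest p. Marker lists are described by level only. Some genes that this rule or the marker lists name are not reported here. Genes named for overlapping exons or as copies were chosen after the values were seen. Alternatives were pseudocounts, filters, scalings, variance settings, the replicate number as a block, and each library left out.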

Additional observations from a re-analysis of the deposited data

How the results depend on the processing

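No cascade member passed in any setting that kept all 4 libraries. The median log2 fold change of the members was 1.42, 0.89 and 0.19 at pseudocounts of 0.1, 0.5 and 5 FPKM, 1.61 over the members averaging 5 FPKM or more, 0.31 after median ratio scaling and 0.076 after quantile normalization of all genes. The filter at 5 FPKM also used the mean over all 4 libraries, so it keeps members that were high in 1 group only. Members above both controls numbered 6 after median ratio scaling and 5, with 3 below, after quantile normalization of all genes. Quantile normalization of the tested genes called 2 genes higher and 3 lower, none a member. The labels give same-numbered libraries a shared number and do not state whether they were paired. The deviations of control 1 and knockout 1 had r = 0.017 over 7823 genes, which cannot decide that. With the replicate block limma called 15 genes higher and 20 lower, none a member. The smallest adjusted p of that limma fit was 1.63e-121, which 4 libraries cannot bear out, so its calls are not relied on. When each library was left out in turn, members above numbered 14 to 19, members below 1 to 4, their median was 0.16 to 0.66, members called higher 0 to 4, and all genes called 0 to 1306 higher and 0 to 5 lower. Signs turned for Irak1 (-1.04 and -1.17 after quantile normalization of all and of tested genes), Sharpin (-0.021 and -0.24), Map2k7 (-0.074, tested genes) and Ubb (-0.38, median ratio scaling). With a library left out, ranges crossed 0 for Irak1 (-0.13 to 2.13), Map2k4 (-3.17 to 2.06), Map3k8 (-2.53 to 1.496), Mapk14 (-2.03 to 4.54) and Cyld (-1.48 to 0.47). The causes were not tested. Detected members numbered 11, 14, 19 and 21 at 0.1 FPKM, in the order of libraries used above. That was 35.5%, 45.2%, 61.3% and 67.7% of members, beside 37.6%, 36%, 46.9% and 48.5% of all genes. At 5 FPKM detected members numbered 8, 5, 12 and 11. That was 25.8%, 16.1%, 38.7% and 35.5%, beside 23.9%, 20%, 31.6% and 29.2% of all genes.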

Other observations

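Of 12 phosphatases that act on the cascade, 2 had both knockouts above both controls and 1 had both below, beside 17.6% and 8.01% of all genes, and limma called 0. The 3 with the smallest p are named here. Ppp2ca, the catalytic subunit of protein phosphatase 2A, read 152 and 228 FPKM in controls and 85.6 and 70.4 in knockouts, below both controls. Ppm1b, a phosphatase that acts on TAK1 and IKK-beta, read 17.8 and 0.12 FPKM in controls and 58.6 and 31.5 in knockouts. Dusp1, which removes phosphate from p38 and JNK and is itself an immediate-early gene, read 542 and 169 FPKM in controls and 1278 and 404 in knockouts, with overlap. Each of the 3 had a limma adjusted p of 0.698.

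Of 12 substrate kinases and docking proteins, 3, 4, 4 and 5 read 1 FPKM or more in control 1, control 2, knockout 1 and knockout 2, beside 28.8%, 24.2%, 38.8% and 36.1% of all genes. Tbk1 (9.60 to 122 FPKM) and Nlk (1.28 to 7.92 FPKM) did so in all 4 libraries. Rps6ka5 (MSK1) read 25.1 FPKM and Mknk1 (MNK1) 10.9 FPKM in knockout 2, and both were at most 0.07 FPKM elsewhere. Mapkapk5 read 8.74 FPKM in control 2 and was listed at 0 in the other 3 libraries. Of the 12 genes, 2 stood above both controls in both knockouts, Mknk2 and Ikbke, beside 17.6% of all genes. These, Tbk1 and Nlk were named after their values were seen, and Ikbke did not exceed 0.02 FPKM. Mknk2 was listed at 0 in both controls and read 4.11 and 0.02 FPKM in knockouts, so knockout 2 exceeded the controls only at the level of rounding.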
